A study of Mus musculus with 6 samples.

Results

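The genes described here are 32 genes of glycolysis and of the response to low oxygen: the glucose carrier, the enzymes from hexokinase to lactate dehydrogenase, the lactate carrier, the oxygen sensors and a set of genes induced by hypoxia. They were chosen by name, and every probe of the array whose annotated symbol was one of the 32 was read. Of these genes, 29 had a probe, 54 probes in all, and 28 had a probe above background and entered the test, which covered 10507 genes. Hk2, Gpi1 and Eno1 had no probe under those symbols and were not analysed here. Bnip3 had a probe, but it lay below the background floor, an intensity of 126.5, on every array.

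The cells were CD11b+Ly6G- myeloid cells, the fraction that holds macrophages and monocytes, sorted from infarcted hearts of outbred ICR mice. The infarct had been made by ligation of the left anterior descending coronary artery (LAD) on day 14 after birth (P14) or on day 1 (P1), and the cells were taken 3 days later in both groups, with both sexes mixed. Each age had 3 arrays, and all 6 carried cells from an injured heart, so age and the response to injury at that age cannot be told apart. The labels name no separate animals or pools behind the arrays, and a p-value then measures the spread between arrays, which may be technical.

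Glycolysis splits glucose into pyruvate in the cytosol, and macrophages raise it when they are activated or short of oxygen. Under low oxygen the prolyl hydroxylases encoded by the Egln genes stop marking HIF-1alpha for the VHL ubiquitin ligase, and the stabilised factor switches on glucose carriers, glycolytic enzymes, Pdk1 and angiogenic factors. Infarcted myocardium is poorly perfused, and HIF-driven glycolysis is a known feature of the inflammatory cells that enter it.

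HIF binds short sites that contain ACGTG or GCGTG. Promoter windows of RefSeq (build GRCm38.p6, from 250 bases before to 50 bases after the start) were found for 30 of the 32 genes, and 26 of them (86.7%) held at least 1 match to either motif on either strand, against 46.7% of all 27025 genes with a window. CACGTG counts once on each strand. A gene with several windows counts once if any holds a match, and base composition was not matched. The windows below belong to the 4 members that differed between the ages and held a match, and are shown because members with such matches stood on both sides of the comparison. Capitals mark ACGTG and GCGTG in either orientation.

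Slc2a1: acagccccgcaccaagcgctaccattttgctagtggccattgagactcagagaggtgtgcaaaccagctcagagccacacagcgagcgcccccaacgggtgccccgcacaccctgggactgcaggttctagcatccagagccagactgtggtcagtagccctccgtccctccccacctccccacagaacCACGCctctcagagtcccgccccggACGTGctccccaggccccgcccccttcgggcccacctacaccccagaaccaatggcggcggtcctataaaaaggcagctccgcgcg
Pfkp: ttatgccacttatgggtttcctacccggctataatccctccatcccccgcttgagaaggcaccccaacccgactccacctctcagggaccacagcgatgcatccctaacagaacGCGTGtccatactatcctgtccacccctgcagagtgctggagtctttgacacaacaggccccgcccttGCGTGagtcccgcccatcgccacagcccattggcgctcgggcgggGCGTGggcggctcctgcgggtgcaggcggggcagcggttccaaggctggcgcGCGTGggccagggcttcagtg
Pgk1: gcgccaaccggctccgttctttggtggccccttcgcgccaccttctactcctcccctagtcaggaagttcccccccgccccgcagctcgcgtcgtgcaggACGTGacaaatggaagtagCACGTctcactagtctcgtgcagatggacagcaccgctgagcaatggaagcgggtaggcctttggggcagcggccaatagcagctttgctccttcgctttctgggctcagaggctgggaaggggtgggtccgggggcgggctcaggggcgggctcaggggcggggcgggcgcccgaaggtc
Pdk1: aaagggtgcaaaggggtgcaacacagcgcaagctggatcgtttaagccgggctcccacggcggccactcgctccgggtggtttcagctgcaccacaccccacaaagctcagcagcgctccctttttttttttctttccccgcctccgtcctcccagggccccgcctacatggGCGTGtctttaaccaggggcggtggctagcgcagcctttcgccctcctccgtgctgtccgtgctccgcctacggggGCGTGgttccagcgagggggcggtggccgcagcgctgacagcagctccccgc

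These are chr4:119108495-119108794 (plus strand), chr13:6648722-6649021 (minus strand), chrX:106186850-106187149 (plus strand) and chr2:71872974-71873273 (plus strand). They hold 2, 4, 2 and 2 matches. Slc2a1 and Pfkp were higher at P14, whereas Pgk1 and Pdk1 were lower. Tpi1 and Vhl, which also differed, had a window with no match, and for Ndrg1 no window was found, so none was searched. Of the 20 tested members that did not pass and had a window, 19 held a match.

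Of the 28 members tested, 5 were higher and 2 were lower at P14 with an adjusted p under 0.05 (limma, Benjamini-Hochberg adjustment over all 10507 genes). That is 25% of the members, against 20.0% of all genes, of which 9.62% were higher and 10.4% lower. The share of members called therefore lay near that of any gene. The ages did not overlap in 16 of 28 members, against 38.5% of all genes. The median log2 difference, P14 minus P1, was 0.14 over the members and -0.01 over all genes, and 21 of 28 members (75%) had a positive difference, against 48.2% of all genes. Array by array, the members' median log2 deviation from their means over all arrays was 0.107, 0.112 and 0.0027 on P14 replicates 1, 2 and 3. On P1 replicates 1, 2 and 3 that deviation was -0.088, -0.0653 and -0.0684, so P14 replicate 3 lay nearest to the mean. All changes were small: the largest was 1.68-fold. Because background was left in the intensities, folds of dim genes are understated.

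**Figure D1:**
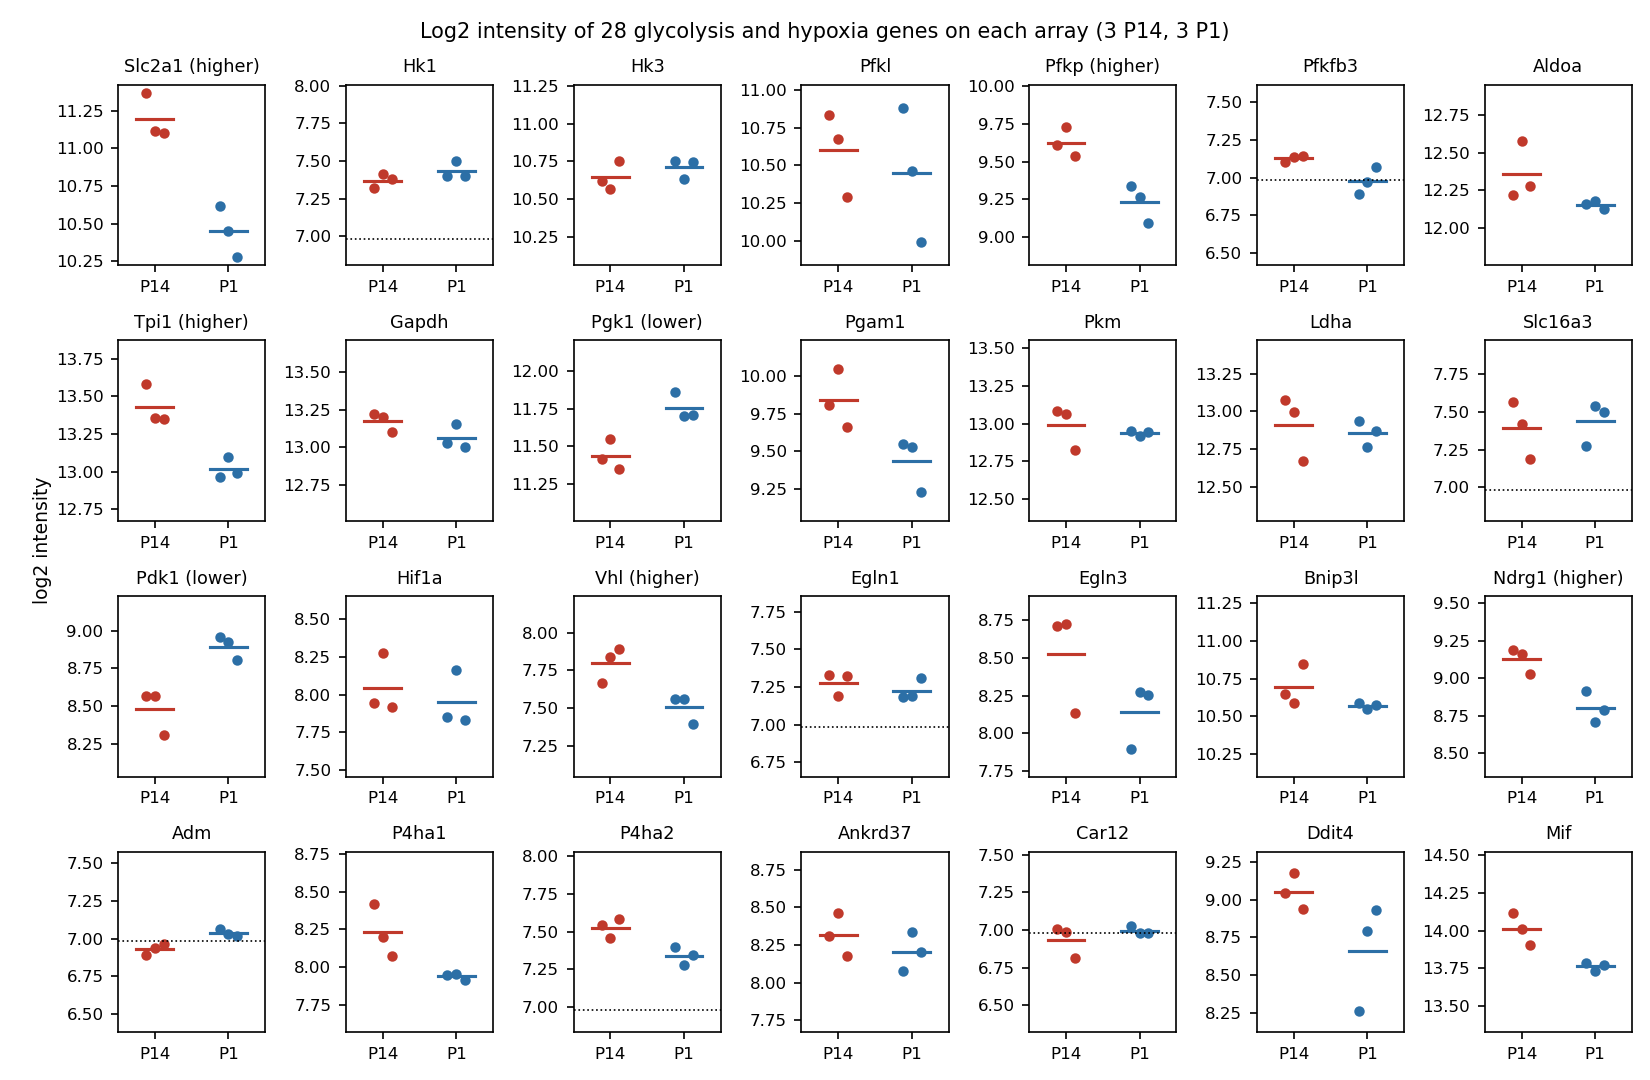
Log2 intensity of the 28 tested genes on each array, P14 in red on the left and P1 in blue on the right of each panel, with bars at the group means and a dotted line at the background floor (intensity 126.5) where it falls in the panel. Each panel spans at least 1.2 log2 units. Slc2a1 shows the widest gap between the ages, and the arrays of Hk1, Hk3, Pkm, Ldha and Hif1a overlap.

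The ages split along principal component 1 (59.2% of variance). Along component 2 (15.4%) the scores of P14 replicates 1, 2 and 3 were 8.18, 5.62 and -15.4, so the last array stood away from its group. The macrophage genes Lyz2 and Cd14 were bright on all arrays, at 21661 to 24902 in P14 and 22060 to 25041 in P1, and the CD11b gene Itgam lay at 336 to 456 and 305 to 410. Cardiomyocyte markers were lower at P14 in 7 of 12 tested genes and higher in 0, against 10.4% of all genes lower. Their summed intensity was 3450 to 3685 in P14 and 6580 to 14324 in P1. Granulocyte markers were lower in 8 of 9, with sums of 5710 to 9039 in P14 and 14802 to 21908 in P1. Those sums were led by S100a8, at 3545 to 6801 in P14 and 9790 to 14401 in P1. The gate was set against Ly6G, and whether granulocytes passed it was not tested. Erythroid genes, led by haemoglobin, summed to 44646 to 89987 in P14 and 56743 to 77767 in P1. Fibroblast markers were lower in 2 of 7 (sums 2463 to 2721 in P14, 2485 to 3926 in P1), lymphocyte and NK markers in 1 of 3 (521 to 622 and 883 to 933), cell cycle genes in 3 of 7 (5898 to 6272 and 6656 to 7399), erythroid genes in 1 of 8 and endothelial markers in 0 of 7 (limma; 1 with an unadjusted p under 0.05; 1336 to 1579 and 1487 to 2153). The lymphocyte and NK marker called was Cd79b (273.2 to 369.8 in P14, 640.4 to 674.5 in P1), while Cd3e and Cd3d lay near the floor. Of the 10 gate and macrophage genes 1 was higher and 1, Csf1r, was lower, and Fcer1g lay near the floor. In such bulk material fewer cells of a type and less RNA per cell cannot be told apart, and the part of these cells in the differences below was not tested.

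Glucose enters the cell through carriers. Slc2a1, which encodes the carrier GLUT1, had intensities of 2640.5, 2222 and 2202 on P14 replicates 1, 2 and 3, against 1572, 1397 and 1244 on P1 replicates 1, 2 and 3. Every P14 array lay above every P1 array. It rose 1.68-fold at P14 (log2 difference 0.75 ± 0.109, SE, n = 3 per group, limma adjusted p = 0.00485; lower 95% bound of the fold 1.41). This call held in every setting tried and with any single array left out, at adjusted p up to 0.0189. Hexokinases trap glucose as glucose-6-phosphate. Hk1, the broadly expressed form, ranged from 160 to 170 in P14 and from 169 to 181 in P1. Hk3, the form abundant in myeloid cells, ranged from 1520 to 1725 in P14 and from 1590 to 1723 in P1. The ages overlapped in both, with log2 differences of -0.06 ± 0.0668 and -0.06 ± 0.0761 (adjusted p = 0.573 and 0.616). The 95% intervals of their folds were 0.861 to 1.07 for Hk1 and 0.847 to 1.08 for Hk3.

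Phosphofructokinase commits the sugar to glycolysis. Its platelet-type subunit Pfkp had intensities of 780, 849 and 745 in P14, against 648, 614 and 547 in P1. The groups did not overlap, and Pfkp rose 1.31-fold (0.39 ± 0.0878, adjusted p = 0.0196). The call was lost without P14 replicate 1 or 2 or P1 replicate 3, with adjusted p between 0.0239 and 0.0670 over the 6 arrays left out in turn. The liver-type subunit Pfkl gave 1823, 1638 and 1249 in P14 and 1884, 1414 and 1020 in P1. It fell from replicate 1 to replicate 3 in both ages and varied more within each age than between them. Its difference of 0.15 ± 0.223 had the widest interval of all members (fold 0.778 to 1.59, adjusted p = 0.691). Pfkfb3 makes fructose 2,6-bisphosphate, the activator of phosphofructokinase. It stood little above background, at 138 to 142 in P14 and 119 to 134 in P1, with 1 P1 array above the floor, and did not pass (0.15 ± 0.0703, adjusted p = 0.175).

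Aldolase and triosephosphate isomerase turn the hexose into triose phosphates. Aldoa had 4761, 6109 and 4964 in P14, against 4570, 4629 and 4480 in P1. The arrays did not overlap, but P14 replicate 2 stood well above the other P14 arrays and the difference did not pass (0.20 ± 0.0993, adjusted p = 0.193). Tpi1 had 12256, 10473 and 10431 in P14, against 8000, 8783 and 8146 in P1. It rose 1.33-fold on this probe (0.41 ± 0.0857, adjusted p = 0.0159; 0.0588 without P1 replicate 3, and 0.0206 to 0.0588 over all arrays left out). The gene has 2 other probes above background that did not follow it. Their log2 differences were -0.01 ± 0.104 and -0.04 ± 0.0866, and the mean of the Tpi1 probes had a difference of 0.12 (adjusted p = 0.351).

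The later steps of the pathway yield ATP. Gapdh, glyceraldehyde-3-phosphate dehydrogenase, had 9557, 9413 and 8783 in P14 and 8362, 9139 and 8189 in P1. These overlapped, and the difference was 0.11 ± 0.0738 (adjusted p = 0.333; fold interval 0.961 to 1.22). Pgk1, phosphoglycerate kinase, ran the other way, with 2728, 2991 and 2610 in P14 against 3715, 3330 and 3351 in P1. Each P14 array was below each P1 array, and Pgk1 fell by 0.32 on the log2 scale (-0.32 ± 0.0809, adjusted p = 0.0294), 1.25-fold lower at P14. Its call was held without P14 replicate 2 and lost without any other array (adjusted p 0.0396 to 0.0829). It was also lost with the mean of its probes (-0.17, adjusted p = 0.100) and after normexp background correction (-0.33, adjusted p = 0.0817).

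Pgam1, phosphoglycerate mutase, had 899, 1057 and 810 in P14 and 751, 740 and 601 in P1. The groups did not overlap, and the difference of 0.40 ± 0.123 just missed the threshold (adjusted p = 0.0552). It passed with the filter that asks for all 6 arrays (adjusted p = 0.0498), with trend and robust variances (0.0420) and with array weights (0.0234). Without P14 replicate 3 it also passed (0.49, adjusted p = 0.0362), and over all arrays left out adjusted p reached 0.160. Pkm, pyruvate kinase, had 8687, 8577 and 7252 in P14 and 7909, 7753 and 7868 in P1, a difference of 0.05 ± 0.0844 (adjusted p = 0.710). The P14 arrays lay on both sides of the P1 arrays. Within the glycolytic enzymes Pfkp was higher and Pgk1 was lower. Tpi1 was higher on the probe used but not on its other probes, and Pgam1 lay at the threshold. Hk1, Hk3, Pfkl, Pfkfb3, Aldoa, Gapdh and Pkm did not pass.

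**Figure D2:**
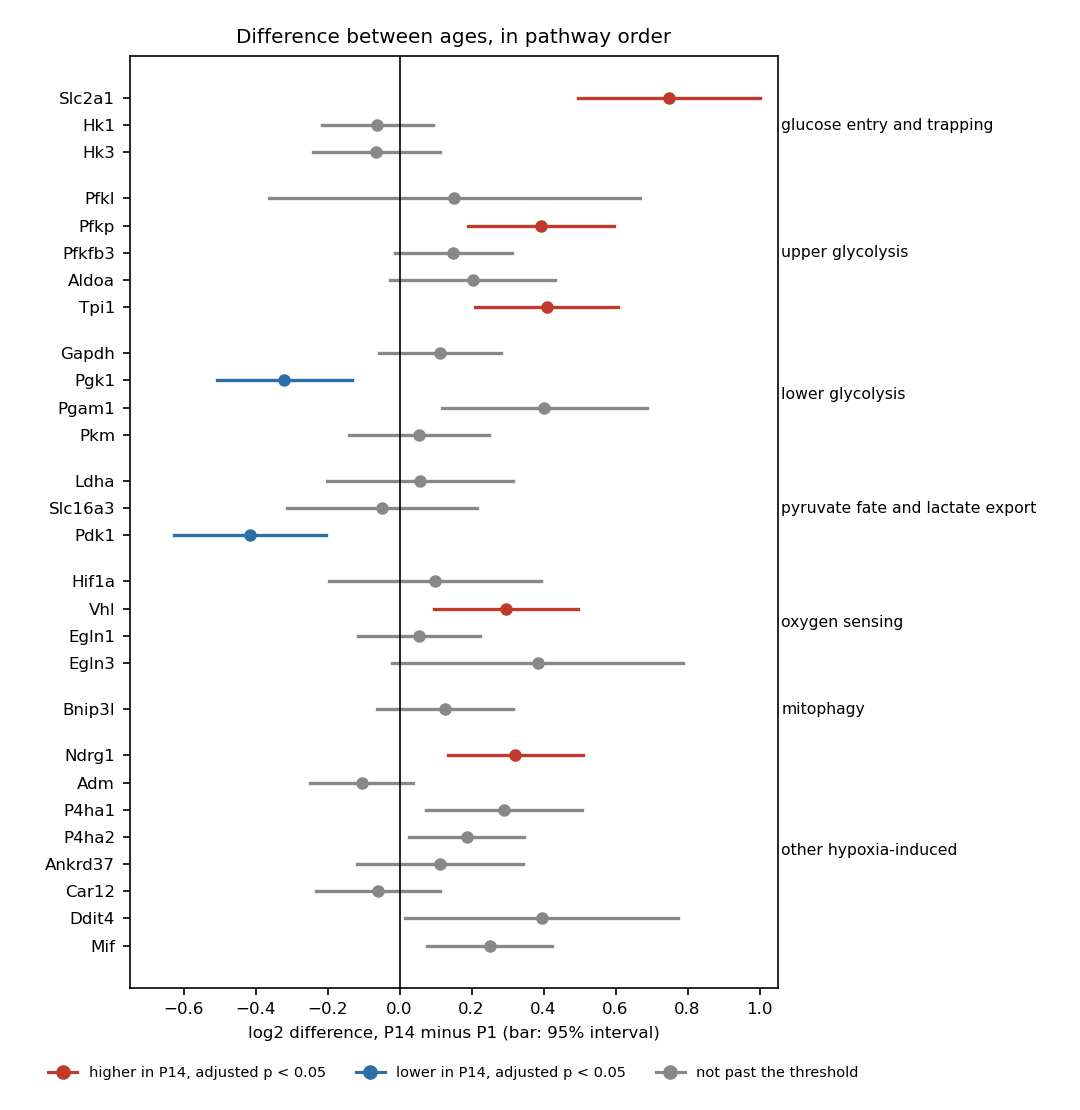
Log2 difference, P14 minus P1, of the 28 tested genes in pathway order, with 95% intervals from limma. Red genes were higher and blue genes lower at P14 with an adjusted p under 0.05, and grey genes did not pass. Slc2a1 leads at 0.75, and Pgk1 (-0.32) and Pdk1 (-0.41) lie below 0.

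At the end of glycolysis, pyruvate is reduced to lactate or enters the mitochondrion. Ldha, lactate dehydrogenase A, had 8618, 8146 and 6517 in P14 and 7831, 6956 and 7468 in P1. P14 replicate 3 was the lowest of the 6 arrays, and the difference was 0.06 ± 0.111 (adjusted p = 0.774; fold interval 0.870 to 1.24). The lactate exporter MCT4, encoded by Slc16a3, read 146 to 190 in P14 and 155 to 186 in P1 and did not pass (-0.05 ± 0.114, adjusted p = 0.816). Pdk1 encodes a kinase that shuts pyruvate dehydrogenase. It had 379.3, 379 and 317 in P14, against 497, 486 and 447 in P1. The groups did not overlap, and Pdk1 fell by 0.41 on the log2 scale (-0.41 ± 0.0918, adjusted p = 0.0189), 1.33-fold lower at P14. It kept its call in each setting that used all arrays and lost it without P1 replicate 1 or 2 (adjusted p = 0.0531 and 0.0527, within 0.0317 to 0.0531 over all arrays left out).

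Among the oxygen sensors, Hif1a, the regulated subunit of the factor, had 246, 310 and 242 in P14 and 231, 287 and 228 in P1. The ranges overlapped, with a difference of 0.10 ± 0.127 (adjusted p = 0.650), and its protein, on which oxygen acts, was not measured. Vhl had 203, 229 and 238 in P14, against 188, 189 and 168 in P1. It rose 1.23-fold (0.30 ± 0.0867, adjusted p = 0.0479) without overlap. This call was held without P14 replicate 1 and lost without any other array (adjusted p 0.0425 to 0.153), as well as with no filter on dim probes (adjusted p = 0.0600). Egln1, the main HIF prolyl hydroxylase, read 146 to 161 in P14 and 145 to 159 in P1 (0.05 ± 0.0734, adjusted p = 0.675). Egln3, a hydroxylase that HIF itself induces, had 420, 424 and 281 in P14 and 238, 309 and 306 in P1. Its P14 replicate 3 fell among the P1 arrays, and the difference of 0.38 ± 0.175 did not pass (adjusted p = 0.163). Without that array it did (0.58, adjusted p = 0.0218), while without the others adjusted p reached 0.383.

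Bnip3l, a mitophagy receptor that red cell precursors also use to clear mitochondria, had 1605, 1542 and 1844 in P14 and 1536, 1498 and 1523 in P1. The groups did not overlap, but the difference was 0.13 ± 0.0817 (adjusted p = 0.323). Its brightest array, P14 replicate 3, was also the one with the highest erythroid sum (89987). The other arrays did not follow that order. P14 replicate 1 had the lowest sum (44646) with Bnip3l at 1605, and P1 replicate 3 had a sum of 77767 with Bnip3l at 1523. Without P14 replicate 3 the difference of Bnip3l was 0.05, and the part of erythroid RNA in it was not tested.

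Of the other hypoxia-induced genes 1 of 8 passed, 12.5% against 20.0% of all genes. Ndrg1, a stress-responsive gene of the NDRG family, had 582, 571 and 523 in P14, against 483, 418 and 442 in P1. It rose 1.25-fold on this probe (0.32 ± 0.0811, adjusted p = 0.0294) with no overlap. A further Ndrg1 probe of like brightness had 488, 556 and 432 in P14 and 493, 398 and 590 in P1, with a difference of 0.01 ± 0.150. With the mean of both the call was lost (0.16, adjusted p = 0.312), as it was after normexp background correction (0.39, adjusted p = 0.0566) and without P14 replicate 1 or 2 or P1 replicate 2 or 3 (adjusted p 0.0286 to 0.0925 over all arrays left out).

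Mif encodes a macrophage cytokine that HIF-1 can induce. It had 17785, 16509 and 15345 in P14, against 14121, 13578 and 13977 in P1, and a difference of 0.25 ± 0.0748 that just missed the threshold (adjusted p = 0.0510). Its adjusted p ran from 0.0343 to 0.141 as arrays were left out. It passed in 4 of 8 other settings with all arrays (adjusted p 0.0293 to 0.149 over the 8). P4ha1 and P4ha2 encode the catalytic subunits of collagen prolyl hydroxylase. P4ha1 had 342, 294 and 269 in P14 and 247, 248 and 241 in P1 (0.29 ± 0.0935, adjusted p = 0.0641), and P4ha2 had 187, 176 and 192 in P14 and 169, 155 and 163 in P1 (0.19 ± 0.0693, adjusted p = 0.0971). Neither gene's groups overlapped. P4ha1 passed in 2 of 8 other settings with all arrays (adjusted p 0.0333 to 0.0881 over the 8). Among arrays left out it passed only without P14 replicate 3 (adjusted p 0.0294 to 0.164 over all arrays left out).

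Ddit4, which encodes the mTOR inhibitor REDD1, had 528, 580 and 492 in P14 and 306, 443 and 488 in P1. The lowest P14 array lay just above the highest P1 array, and the difference of 0.39 ± 0.164 did not pass (adjusted p = 0.131). Ankrd37, a HIF target of the ankyrin repeat family, read 289 to 353 in P14 and 270 to 323 in P1 (0.11 ± 0.0997, adjusted p = 0.487). Adm, the vasodilator adrenomedullin, was not above the floor on any P14 array (119 to 125) and was just above it on the P1 arrays (129 to 134). Its difference did not pass (-0.11 ± 0.0620, adjusted p = 0.277), and the P14 level is only a bound. Car12, a carbonic anhydrase, lay at the floor in both ages (-0.06 ± 0.0743, adjusted p = 0.637).

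Of the 54 probes, 43 were above background, and 13 genes had more than 1 of them. Fitted probe by probe, 5 member probes were higher and 2 lower at P14, against 16.5% of all 19107 probes called. These included a dim Pkm probe that had 161, 180 and 158 in P14, against 124, 130 and 119 in P1 (0.42 ± 0.0740, adjusted p = 0.0107), unlike the bright Pkm probe. The Vhl probe, called in the gene fit, just missed the threshold in the probe fit (limma adjusted p = 0.0502). Whether the probes of a gene differed was tested on their log2 ratio on each array, a test added after the values were seen, in which 17.9% of 5760 probe pairs over all genes passed. Of 15 pairs in these genes 3 passed: the used Tpi1 probe exceeded its 2 others by 0.42 ± 0.116 and 0.45 ± 0.104 (adjusted p = 0.0245 and 0.0113), and the bright Pkm probe lay below the dim one by 0.36 (-0.36 ± 0.105, adjusted p = 0.0315). For Ndrg1 the probes differed by 0.31 ± 0.133 (adjusted p = 0.122). The further Pgk1 probe (-0.02 ± 0.0655) lay near the floor, and the Pgk1 pair had a difference of -0.30 ± 0.103 (adjusted p = 0.0630). The second Tpi1 probe, at 3840 to 4972 in P14 and 4178 to 4761 in P1, was far above background.

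**Figure D3:**
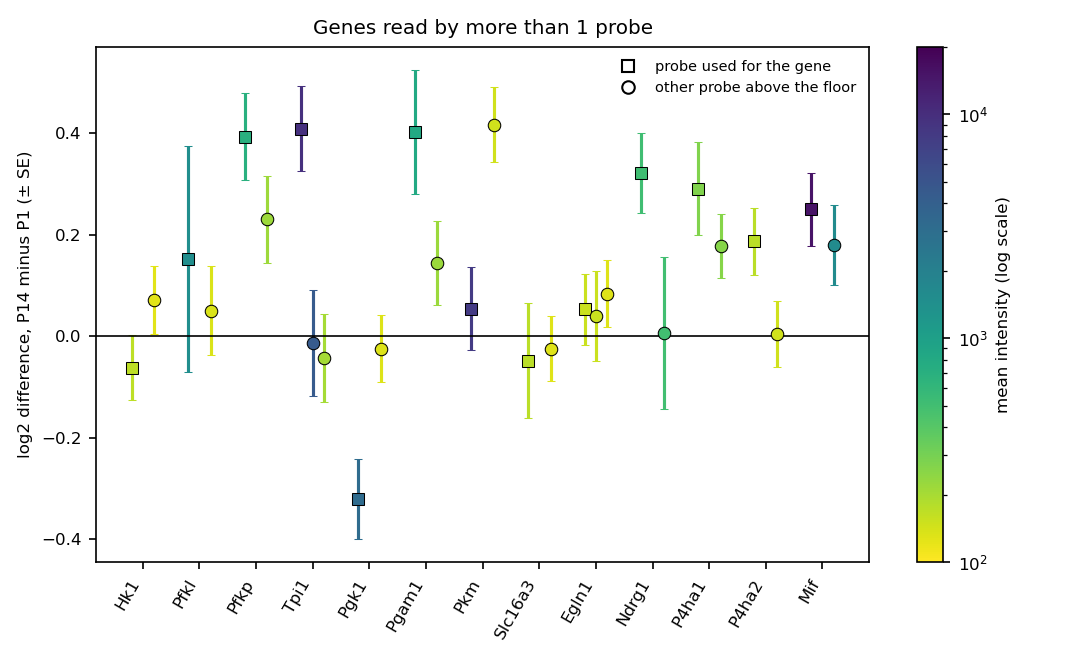
Log2 difference, P14 minus P1, with its SE for each probe above background of the 13 genes read by more than 1, coloured by mean intensity. Squares are the probes used for the gene and circles the others. The probes of Tpi1 and Pkm differed in the test of their ratio, and those of the other 11 genes, Pgk1 and Ndrg1 included, did not pass it.

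Related genes were read from 5 further lists, chosen with earlier results of these data known. Of 16 tested genes among other glycolytic isoenzymes and carriers, 2 were higher and 2 lower at P14, with a median of -0.04. That is 25% called, against 20.0% of all genes. Slc2a6, a lysosomal hexose carrier of inflammatory macrophages, had 2333, 2592 and 2013 in P14, against 1712, 1366 and 1445 in P1. It rose 1.53-fold (0.62 ± 0.118, adjusted p = 0.0119) and kept its call with any array left out (adjusted p up to 0.0459). Eno2, the gamma enolase, had 1116, 873 and 816 in P14, against 741, 698 and 602 in P1. It rose 1.37-fold (0.45 ± 0.130, adjusted p = 0.0460), a call lost without any array but P14 replicate 3 (adjusted p 0.0331 to 0.143), with no filter (0.0818) and after normexp correction (0.0586). Eno2 has 1 probe above background, and its adjusted p was 0.0506, at the same difference, where other genes took the mean of their probes.

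Aldoc, aldolase C, was 1.31-fold lower at P14 (-0.39 ± 0.0898, adjusted p = 0.0221). That call was lost without P14 replicate 1 or 3 or P1 replicate 1 or 2 (adjusted p 0.0289 to 0.0692 over all arrays left out). After normexp background correction its difference was -0.83. Pgam2, the muscle form of phosphoglycerate mutase, had 152, 164 and 149 in P14, against 178, 259 and 268 in P1. It was 1.49-fold lower (-0.58 ± 0.150, adjusted p = 0.0323), -1.04 after normexp correction, and lost its call without any array but P1 replicate 1 (adjusted p 0.00410 to 0.104) and with no filter on dim probes (0.0625). Among the P1 arrays Pgam2 was dimmest on replicate 1, the array with the lowest cardiomyocyte sum in P1 (6580; the other sums were 14324 and 13098), and the part of heart muscle RNA in it was not tested.

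The pentose phosphate pathway branches off to make NADPH. In that pathway 0 of 6 genes passed (limma, 3 with an unadjusted p under 0.05), against 20.0% of all genes, with a median of 0.18. Its brightest members were Taldo1 (0.19 ± 0.0750, adjusted p = 0.119) and Tkt (0.24 ± 0.119, adjusted p = 0.192). In pyruvate oxidation 0 of 8 passed (3 with an unadjusted p under 0.05), with a median of 0.01. Pdha1, the pyruvate dehydrogenase subunit that Pdk1 phosphorylates, had a difference of -0.32 ± 0.106 (adjusted p = 0.0666), and the phosphatase gene Pdp2, which acts against that kinase, had 0.25 ± 0.0755 (adjusted p = 0.0528).

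Of 15 further oxygen-sensing genes 0 were higher and 1 was lower (6.67% called, against 20.0% of all genes), with a median of -0.02. Arnt, the partner subunit of HIF, had 561, 584 and 562 in P14, against 690, 720 and 666 in P1, with no overlap. It fell by 0.28 on this probe (-0.28 ± 0.0652, adjusted p = 0.0224), but the mean of its probes had a difference of 0.039 (adjusted p = 0.668), and the call was held only without P14 replicate 3 when single arrays were left out (adjusted p 0.0475 to 0.0670). It was also lost with trend and robust variance estimation (adjusted p = 0.0538) and after normexp background correction (adjusted p = 0.0666).

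Of 27 other hypoxia-induced genes 2 were higher and 2 lower (14.8% called, against 20.0% of all genes), with a median of -0.03. Vegfa, the angiogenic factor, had 3574, 3008 and 3593 in P14, against 1947, 1887 and 1828 in P1, and rose 1.79-fold (0.84 ± 0.0864, adjusted p = 0.00174) with no overlap. Like Slc2a1, Vegfa kept its call in every setting (adjusted p up to 0.0112). Jmjd6, a JmjC-domain hydroxylase, rose 1.25-fold (0.32 ± 0.0894, adjusted p = 0.0403), and this call was held only without P14 replicate 3 when single arrays were left out (adjusted p 0.0481 to 0.115). It was lost with no filter and after normexp background correction (adjusted p = 0.0525 and 0.0869).

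Hilpda, which blocks lipolysis at lipid droplets and is a HIF target, had 10193, 11367 and 9757 in P14, against 13252, 12860.2 and 13832 in P1. It fell by 0.35 (-0.35 ± 0.0786, adjusted p = 0.0192), 1.28-fold lower, with no overlap between the ages. The call was lost without P14 replicate 1 or P1 replicate 3 (adjusted p 0.0237 to 0.0725 over all arrays left out), with the mean of its probes (adjusted p = 0.0755) and after normexp background correction (adjusted p = 0.0616). Cxcr4, the receptor for the chemokine CXCL12, had 974, 1201 and 1094 in P14, against 1495, 1612 and 1269 in P1. It was 1.34-fold lower (-0.42 ± 0.112, adjusted p = 0.0359), a call held without P14 replicate 2 or P1 replicate 3 and lost without any other array (adjusted p 0.0327 to 0.105). It was also lost with no filter, with array weights and after normexp background correction (adjusted p = 0.0595, 0.0547 and 0.0576).

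**Figure D4:**
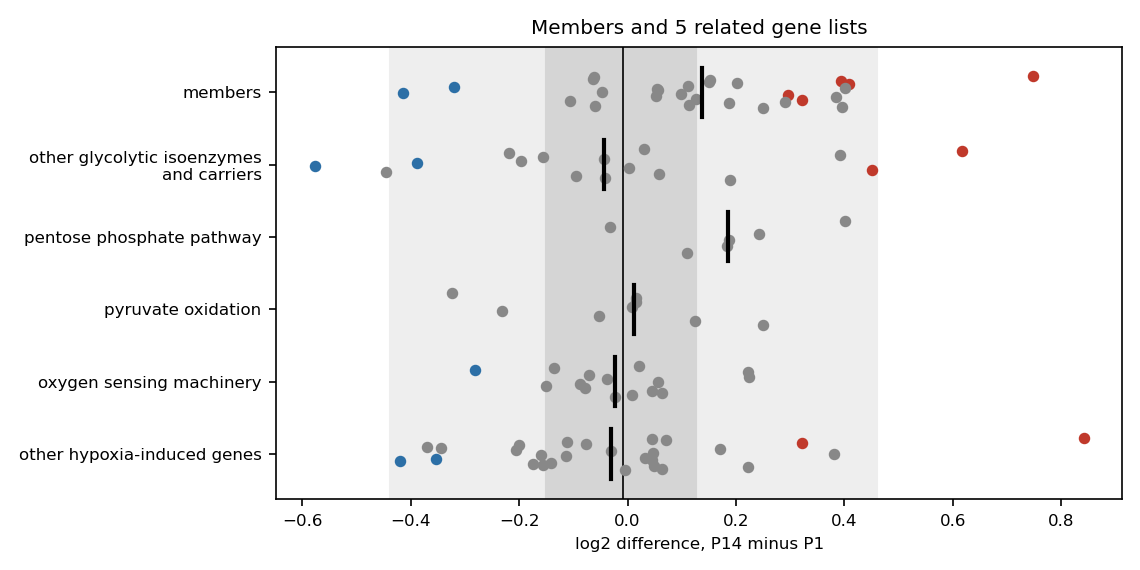
Log2 difference, P14 minus P1, of each tested gene in the 28 members and in 5 related lists, with red for higher and blue for lower at P14 (adjusted p under 0.05) and black bars at the list medians. The dark band (-0.15 to 0.13) and the light band (-0.44 to 0.46) span percentiles 25 to 75 and 5 to 95 of all 10507 genes, and the thin line marks their median of -0.01. The median is 0.14 for the members and -0.03 for the other hypoxia-induced genes.

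The calls differed in how far they rested on single arrays. Without P1 replicate 3 the members called were 1 higher and 1 lower, with P1 replicate 1 left out 4 and 0, and with P1 replicate 2 left out 3 and 0. Without P14 replicate 1 they were 3 and 1 and without P14 replicate 2 they were 2 and 2. Without P14 replicate 3, the array that stood apart, 8 were higher and 1 was lower. Over all genes, calls were fewest without P1 replicate 3, at 535 higher and 519 lower, against 1011 and 1094 with all arrays. All-gene calls were 614 and 619 without P14 replicate 1, and 617 and 575 without P14 replicate 2. They were 893 and 921 without P14 replicate 3, and 788 and 826 without P1 replicate 1.

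**Figure D5:**
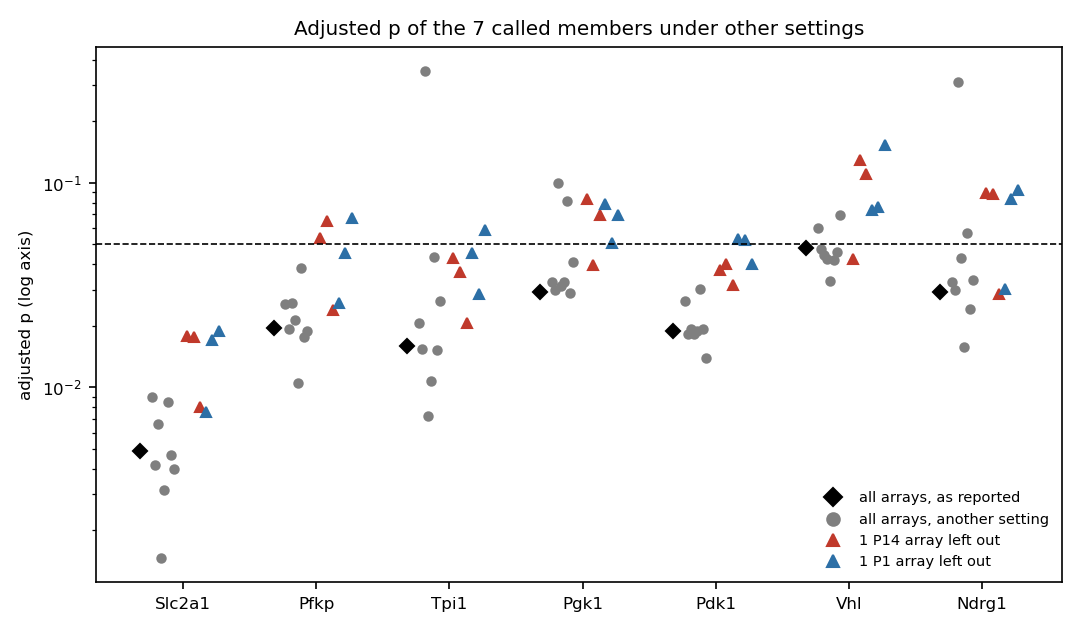
Adjusted p, on a log axis, of the 7 called members with all arrays as reported (diamonds), under other settings with all arrays (grey circles) and with 1 P14 (red) or 1 P1 (blue) array left out. The dashed line is the threshold of 0.05. Every point of Slc2a1 lies below the line, and the other 6 genes cross it.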

How the data were processed

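The authors deposited linear probe intensities of Illumina mouse bead arrays for the 6 samples. Per the labels, total RNA was made into labelled cRNA. From the values, the authors' intensities had been quantile-normalized between arrays with background left in, since the sorted columns matched and the lowest value was 96.7. No source used here names the software. A table of scanner signals was not used, because none of its 24 columns matches a sample label.

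Probes were named through the platform's annotation. The floor lay 3 standard deviations above the mode of the log2 values, and probes brighter than it on 3 or more arrays were kept. Of 45281 probes 19107 were kept, and each gene took its kept probe with the highest mean. The ages were compared on the log2 scale by limma 3.58.1 (lmFit, then eBayes; R 4.3.3), two-sided, with age as the sole term, Benjamini-Hochberg adjustment over all genes tested and a threshold of 0.05. Differences are P14 minus P1 with limma's standard errors. The fit was tested on simulated data.

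The members and lists were chosen with earlier results of these data known. All members are named, and of each other list the up to 4 largest changes past the threshold or, with none, the 2 brightest genes. Alternatives were no filter or a stricter one, the mean of a gene's probes, trend and robust variances, array weights, normexp background correction, cyclic loess, a replicate block and single arrays left out. Same-numbered arrays of the 2 ages had deviations from their group means that correlated at 0.16, 0.0716 and 0.13 over genes. Differently numbered arrays correlated at -0.151 to -0.0158. The same-number correlations were low, so the numbers were not taken as pairs.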

Additional observations from a re-analysis of the deposited data

How the results depend on the processing

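Over 28 tested members and 14 alternatives, no called difference changed direction, 27 lost and 14 gained significance and 348 did neither. The filter that asks for all 6 arrays tested 25 members, without Pfkfb3, Adm and Car12, and those comparisons are not counted. All 27 losses fell on the 7 called members, since the other 21 had no call to lose. Beyond the members, Arnt had a log2 difference of 0.039 with the mean of its probes, against -0.28 on the probe used; the cause was not tested. With all arrays, the member genes called higher numbered 8 with array weights, and those called lower 1 with the mean of probes and 1 after normexp background correction. Member probes called higher numbered 9 with array weights and 8 with trend and robust variances, and those lower 1 after normexp. Pathway list genes called were 2 higher and 3 lower with no filter, 3 lower with the mean of probes or after normexp, and 8 higher with array weights. With single arrays left out, member genes called ranged from 1 to 8 higher and 0 to 2 lower, member probes from 2 to 9 and 0 to 2, pathway list genes from 2 to 7 and 0 to 4, and all genes from 535 to 893 higher and 519 to 921 lower. The titles number the arrays 1 to 3 in both ages. With this number as a replicate block, 5 member genes were higher and 2 lower and, over all genes, 1064 and 1118; Vhl lost its call (adjusted p = 0.0699) and Pgam1 gained one (adjusted p = 0.0197). Every array correlated best with its own number, which is a hint from the data and not from the design. The median of all genes stayed within 0.02 of 0 under every scaling. The limits are 3 arrays a group, intensities with background left in, and dim probes such as those of Adm, Car12, Pfkfb3 and Bnip3, near or below the floor.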
